A study of Mus musculus with 12 samples.

Results

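The genes described here make cholesterol, control its synthesis and move it between cells in the brain. They comprise 34 listed genes, which are the enzymes of sterol synthesis, the SREBP control proteins, and the carriers, pumps, receptors and turnover enzymes of brain cholesterol. A gene was measured through probe sets whose annotation names a single gene symbol, and where a gene had several, the set with the highest average signal stood for it. By this rule 31 of the 34 were measured, among 19938 genes in all, and Acat2, Nr1h2 and Soat1 were not analysed here. All 31 lay above the 25th percentile of their array in all 12 arrays, so no member was lost to the filter on low values that left 16721 genes tested.

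The samples are striatum of male mice aged 90 days, hybridised to Affymetrix whole-transcript arrays. The mice carried a knock-in of the Huntington's disease gene on both chromosomes. It was either the control allele (HdhQ20/Q20, here Q20) or the expanded disease allele (HdhQ111/Q111, here Q111), so no group has an unmodified gene. Each allele was combined with an intact glutamate receptor gene Grm5 (mGluR5+/+, here with mGluR5) or its loss (mGluR5-/-, here without mGluR5), which gives 4 groups of 3 arrays. The labels give all groups a mixed background of 129, CD-1, C57BL/6 and FV, and do not say whether the 3 arrays of a group are separate animals. The p-values therefore measure the spread between these arrays, which may be technical. All values are log2 signals, and differences are log2 fold changes with the standard error of limma.

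Brain cholesterol is made within the brain, because lipoproteins of the blood do not cross the blood-brain barrier. Synthesis runs from acetyl-CoA through mevalonate to squalene, and from squalene through ring closure and a series of demethylations, reductions and isomerisations to cholesterol. The SREBP transcription factors switch on the enzyme genes when membrane sterol is low, and are held back by INSIG proteins when it is high. Astrocytes export cholesterol on apolipoprotein E through ABC pumps, which oxysterol-activated LXR receptors induce. Neurons take it up and remove the excess by hydroxylation. In Huntington's disease models, lower expression of sterol synthesis genes in the striatum has been a subject of study.

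Hsd17b7 was the only one of the 31 members that passed the test in any comparison, and it was lower with the Q111 allele both with and without mGluR5. It encodes the ketosteroid reductase that works with Msmo1 and Nsdhl in stripping methyl groups from the sterol ring. The gene (Entrez 15490) lies on chromosome 1 at 169949535 to 169969242 in RefSeq on GRCm38.p6. Because it carries the finding, the bases before its start are shown beside those of Hmgcs1, the only member with a match to the sterol regulatory element searched. Each run gives the 250 bases before the transcript start that the RefSeq promoter window uses, 5′ to 3′ on the strand of the gene, from RefSeq on GRCm38.p6 (Hsd17b7 on the minus strand at chr1:169969206-169969455, Hmgcs1 on the plus strand at chr13:119690101-119690350). For Hsd17b7 that start is 169969205, which lies 37 bases inside the outer end of the gene, so the last 37 bases of its run fall within the gene's span. For Hmgcs1 it is the gene's own start, 119690351. Capitals mark matches to the NF-Y box CCAAT, which reads ATTGG on the opposite strand, and in Hmgcs1 also to the sterol regulatory element.
Hsd17b7: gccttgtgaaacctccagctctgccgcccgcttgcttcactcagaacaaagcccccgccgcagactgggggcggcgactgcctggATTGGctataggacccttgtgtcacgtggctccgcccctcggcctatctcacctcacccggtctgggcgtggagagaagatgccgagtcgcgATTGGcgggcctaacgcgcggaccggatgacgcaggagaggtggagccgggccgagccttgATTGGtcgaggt
Hmgcs1: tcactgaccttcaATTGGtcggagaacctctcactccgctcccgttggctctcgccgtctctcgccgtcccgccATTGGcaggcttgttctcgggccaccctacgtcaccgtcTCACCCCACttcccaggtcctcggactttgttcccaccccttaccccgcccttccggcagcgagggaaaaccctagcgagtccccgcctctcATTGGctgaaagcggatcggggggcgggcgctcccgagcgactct

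The motifs were searched on both strands in RefSeq windows of 300 bases, from 250 before to 50 after the start, and they do not overlap each other in these 2 promoters. Hsd17b7 held 3 matches to the NF-Y box in the 250 bases before that start. Their first printed bases lie 165, 73 and 12 bases before the start used by its window, the last of them within the gene's span. Of all windows, 3.37% held 3 or more over their full 300 bases. Among the members, Mvk, Hmgcs1, Insig2, Msmo1 and Ggps1 also held 3 or more in the 250 bases before the start. The member counts thus cover a shorter stretch than the share of all windows. The sterol regulatory element TCACNCCAC matched Hmgcs1 alone, as TCACCCCAC from 137 bases before the start. It was found in 1 of the 28 members with a window and in 1.44% of all 27025 genes with one. The NF-Y box was found in 22 of the 28 members (78.6%) and in 41.1% of all genes. Of these 28 members, 25 were measured on the arrays. A gene counted if any of its windows matched, and some genes have several. By window, the NF-Y box was found in 59.0% of the 39 member windows and in 37.4% of all 32851. A match is a description of the letters in this window, and no factor binding was measured.

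Hsd17b7 measured 8.25, 8.73 and 8.40 in Q20 arrays with mGluR5 and 8.55, 8.87 and 8.56 in those without it. In Q111 arrays it measured 7.85, 7.82 and 7.80 with mGluR5 and 7.96, 7.84 and 7.80 without it. Every Q111 array lay below every Q20 array, with a gap of 0.29 between the nearest arrays, and the Q111 values were the more tightly grouped. The group means were 8.46 ± 0.25 (SD, n = 3) and 8.66 ± 0.18 in Q20 with and without mGluR5, against 7.83 ± 0.03 and 7.87 ± 0.08 in Q111.

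With mGluR5, Hsd17b7 fell by 0.64 ± 0.12 on the log2 scale in Q111 (1.55-fold lower, limma adjusted p = 0.02395). It was the 1 member called of 31, where 0.574% of all tested genes were called and 0.275% were called lower. This call depends on the arrays used: it was lost without Q20 replicate 2 (adjusted p = 0.123) or 3 (0.0827) with mGluR5, and without Q111 replicate 1 (0.0898) or 3 (0.079) with mGluR5. Without mGluR5 it fell by 0.79 ± 0.12 (1.73-fold lower, adjusted p = 0.003145), again as the 1 member called, against 0.885% of all tested genes called and 0.544% called lower. Averaged over both mGluR5 genotypes it fell by 0.71 ± 0.09 (1.64-fold lower, adjusted p = 0.000309), with 1.32% of all tested genes called and 0.825% called lower. The averaged change passed the test in each of the 24 alternative analyses that were run.

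The loss of mGluR5 was not detectable in Hsd17b7. The difference was 0.20 ± 0.12 in Q20 (adjusted p = 0.948) and 0.04 ± 0.12 in Q111. The interaction, which asks whether the Q111 effect differs with the receptor, was -0.16 ± 0.17 with a 95% interval of -0.52 to 0.21 (adjusted p = 0.9999), so a moderate difference between the receptor genotypes is not resolved by these arrays. In bulk striatum, fewer cells of a type and less RNA per cell cannot be told apart, and this holds for every difference below.

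**Figure D1:**
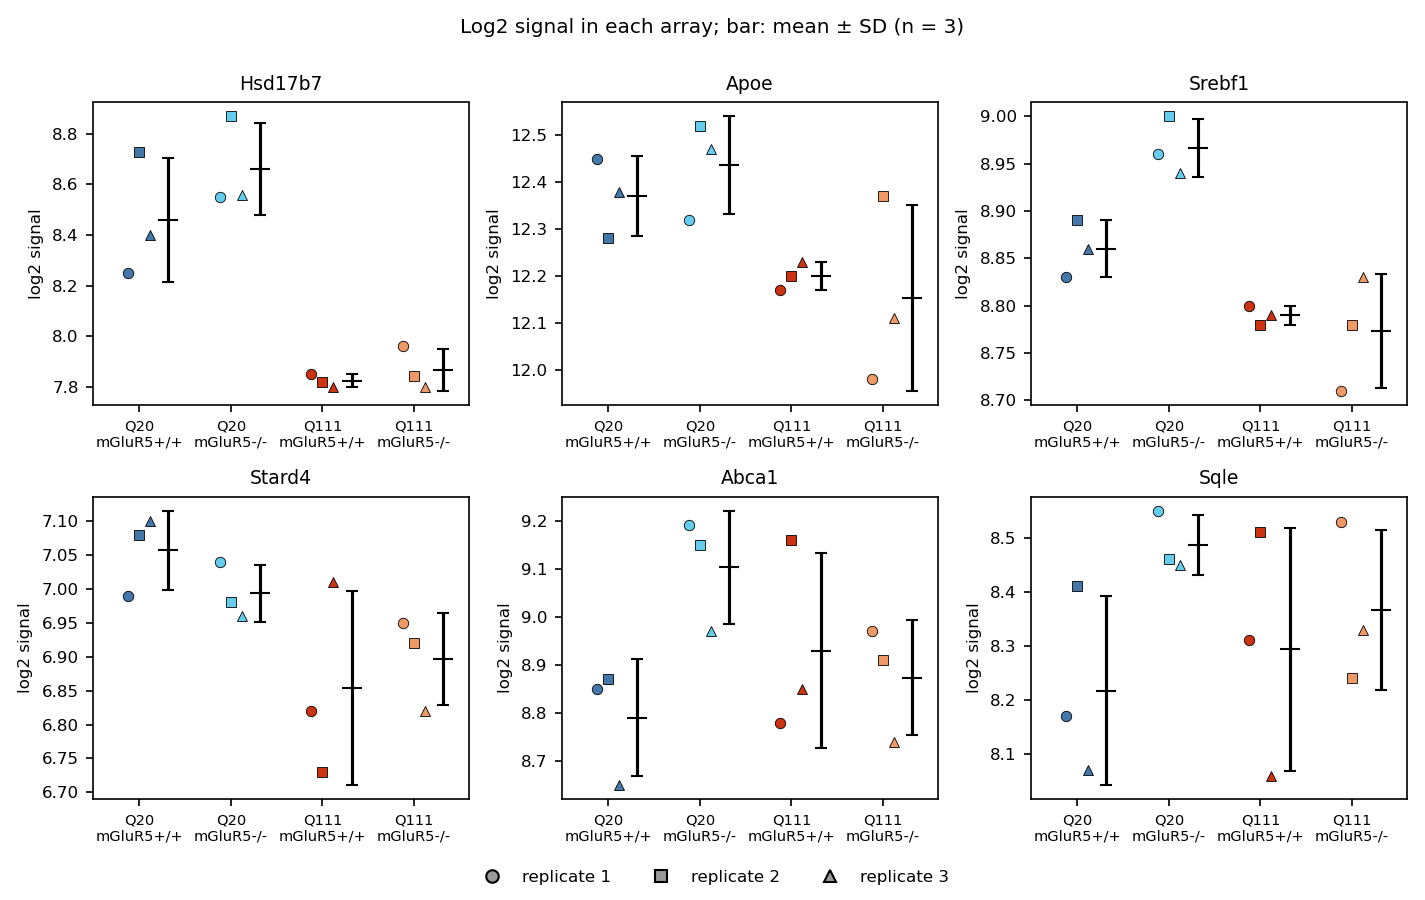
Log2 signal of Hsd17b7, Apoe, Srebf1, Stard4, Abca1 and Sqle, with 1 point for each array, its shape giving the replicate number, the 4 genotype groups along the horizontal axis, and beside each group its mean ± SD (n = 3). All Hsd17b7 points of the Q111 groups lie at or below 7.96 and all those of the Q20 groups at or above 8.25.

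Hsd17b7 sits on a stretch of chromosome 1 that holds other genes with lower Q111 values. Among the 5 tested genes on either side, which span 3.14 Mb, Rxrg and Uhmk1 passed the test in the averaged Q111 comparison. In that comparison 1.32% of all tested genes were called. Lrrc52, Spata46 and Nos1ap were called in no comparison. Rxrg, a retinoid X receptor that pairs with nuclear receptors, measured 11.26, 11.36 and 11.34 in Q20 with mGluR5 and 11.48, 11.41 and 11.45 without it. In Q111 it measured 11.19, 11.16 and 11.02 with mGluR5 and 11.17, 10.96 and 11.03 without it. Its averaged Q111 change was a fall of 0.30 ± 0.06 (adjusted p = 0.0304), and its arrays separate by allele as those of Hsd17b7 do.

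Uhmk1, which encodes a kinase, fell by 0.48 ± 0.10 in Q111 without mGluR5 (adjusted p = 0.0293) and by 0.32 ± 0.07 averaged over both receptor genotypes (adjusted p = 0.0296). Rgs4, which shortens G-protein signals, differed by -0.29 averaged and did not pass (adjusted p = 0.0595). The nearest tested genes on either side were Ddr2 and Ccdc190. Ddr2, a collagen receptor, differed by -0.26 ± 0.10 and -0.25 ± 0.10 with and without mGluR5, and Ccdc190 by -0.61 ± 0.31 and -0.33, none of which passed. Rgs5, a marker of pericytes, differed by 0.01 and -0.37 and did not pass. Uap1, which lies between Ddr2 and Uhmk1, differed by 0.13 with mGluR5 and -0.04 without it. The differences of these neighbours were therefore uneven along the stretch, and none was as large as that of Hsd17b7 in both receptor genotypes. The part of strain alleles in the mixed background was not tested.

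**Figure D2:**
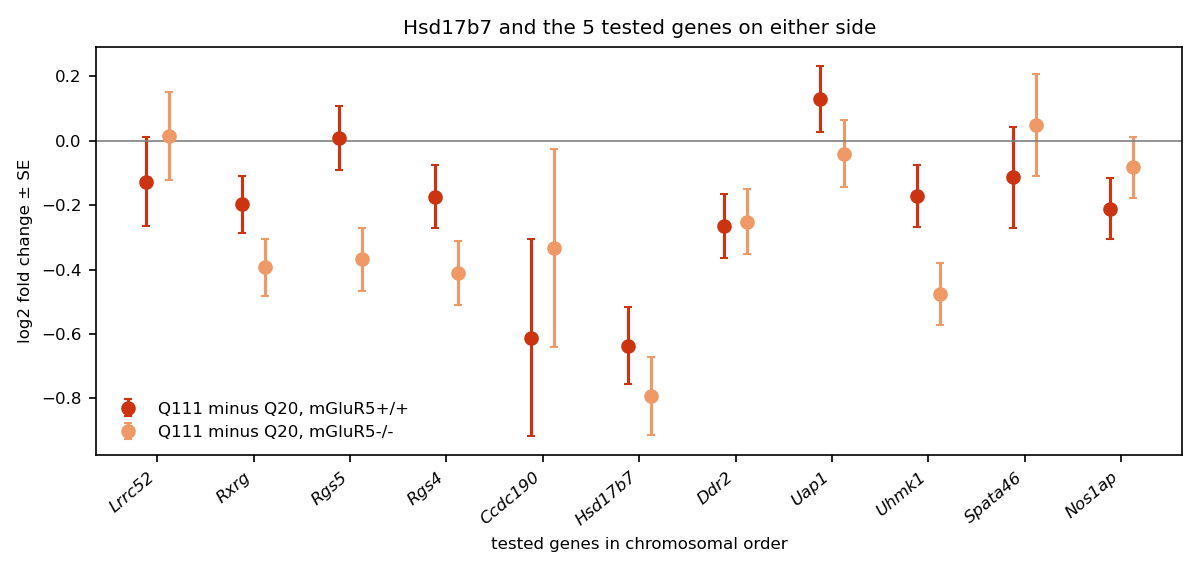
Log2 fold change of Q111 against Q20, with its standard error, for Hsd17b7 and the tested genes on either side in RefSeq gene order, shown with and without mGluR5. Hsd17b7 stands at -0.64 and -0.79, while Uap1 stands at 0.13 and -0.04.

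The 7 measured enzymes of the mevalonate stage build the isoprene units, and none passed the test in any comparison. With mGluR5 their Q111 differences were positive in 7 of 7, and without mGluR5 in 2 of 7. Of all tested genes, 45.9% and 43.3% were positive in these comparisons. Hmgcs1, which makes the precursor of mevalonate, differed by 0.05 ± 0.12 in Q111 with mGluR5 and by -0.15 ± 0.12 without it. Idi1, the isomerase that readies isoprene units for chain growth, differed by 0.05 ± 0.14 and -0.25 ± 0.14. A second probe set for Idi1 gave 0.01 and -0.10. Mvk, the mevalonate kinase, differed by 0.00 ± 0.10 and -0.01 ± 0.10, and Mvd, the decarboxylase further along, by 0.04 ± 0.11 in both.

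Fdps, which joins isoprene units into farnesyl diphosphate, measured 7.72, 7.68 and 7.71 in Q20 with mGluR5, 7.83, 7.85 and 7.83 in Q20 without it, 7.84, 7.84 and 7.70 in Q111 with it, and 7.86, 7.85 and 7.83 in Q111 without it. The Q20 arrays without mGluR5 lay above those with it, but the difference of 0.13 ± 0.08 did not pass. Pmvk, the phosphomevalonate kinase, differed by 0.10 ± 0.10 and -0.06 ± 0.10 in Q111 with and without mGluR5. Ggps1, which extends the chain to geranylgeranyl diphosphate, differed by 0.09 ± 0.11 and -0.06 ± 0.11.

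The 11 enzymes from squalene to sterols include Hsd17b7, and the other 10 passed no test. Over all 11 genes the Q111 differences were positive in 6 with mGluR5 and in 2 without it, against 45.9% and 43.3% of all tested genes. For the 18 measured enzymes of both stages the count without mGluR5 depends on scaling. It was 4 as deposited, 7 after quantile normalization and 9 with the interquartile range of each array as a covariate. With mGluR5 it was 13, 13 and 14. Fdft1, the squalene synthase and the branch point to sterols, measured 10.76, 11.06 and 10.75 in Q20 with mGluR5 and 11.03, 11.17 and 11.15 in Q20 without it. The Q111 arrays measured 10.76, 11.14 and 10.68 with mGluR5 and 10.95, 10.93 and 10.75 without it. The Q111 arrays without mGluR5 lay below their Q20 counterparts by 0.24 ± 0.12, and a second probe set gave a difference of -0.15.

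Sqle, the epoxidase that opens the sterol branch, measured 8.17, 8.41 and 8.07 in Q20 with mGluR5, 8.55, 8.46 and 8.45 in Q20 without it, 8.31, 8.51 and 8.06 in Q111 with it, and 8.53, 8.24 and 8.33 in Q111 without it. The Q20 arrays without mGluR5 lay above those with it by 0.27 ± 0.12, which did not pass (adjusted p = 0.807). Nsdhl, a partner of Hsd17b7 in demethylation, measured 8.64, 8.68 and 8.69 in Q20 with mGluR5 and 8.60, 8.65 and 8.51 without it. In Q111 it measured 8.56, 8.75 and 8.42 with mGluR5 and 8.60, 8.90 and 8.72 without it. Its Q111 differences were -0.10 ± 0.10 with mGluR5 and 0.15 ± 0.10 without it, and the groups overlapped in both. Msmo1, the other partner and a methylsterol oxidase, differed by 0.07 ± 0.15 and -0.01 ± 0.15. Neither of these partners passed the test in any comparison.

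Sc5d, the sterol desaturase near the end of the pathway, measured 9.20, 9.36 and 9.35 in Q20 with mGluR5, 9.22, 9.51 and 9.38 in Q20 without it, 9.25, 9.56 and 9.32 in Q111 with it, and 9.17, 9.23 and 9.16 in Q111 without it. The Q111 arrays without mGluR5 lay below those with it by 0.19 ± 0.10, a difference that did not pass. Lss, the cyclase that closes the sterol rings, differed in Q111 by -0.12 ± 0.13 with mGluR5 and -0.08 ± 0.13 without it, and Cyp51, the lanosterol demethylase, by -0.10 ± 0.15 and -0.02 ± 0.15. Tm7sf2, a sterol reductase, differed by 0.04 ± 0.10 and 0.16 ± 0.10, and Ebp, the sterol isomerase, by 0.13 ± 0.14 and -0.02 ± 0.14. Dhcr7, the reductase of the last step by one route, differed by -0.03 ± 0.09 and -0.12 ± 0.09.

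None of the 5 SREBP control genes passed the test. Srebf1, which encodes the SREBP form tied mainly to fatty acid synthesis, measured 8.83, 8.89 and 8.86 in Q20 with mGluR5 and 8.96, 9.0 and 8.94 in Q20 without it. The Q111 values were 8.80, 8.78 and 8.79 with mGluR5 and 8.71, 8.78 and 8.83 without it. The 6 Q111 arrays lay below the 6 Q20 arrays, though the nearest arrays of the 2 alleles both round to 8.83. The averaged difference of -0.13 ± 0.06 did not pass (adjusted p = 0.373), nor did that of -0.20 ± 0.08 without mGluR5 (adjusted p = 0.416). Srebf1 and Hsd17b7 were the 2 members whose Q111 and Q20 arrays did not overlap, where 1.21% of all tested genes were separated in that way and 0.771% were lower.

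Srebf2, whose product drives the sterol enzymes, differed by -0.04 ± 0.10 and -0.06 ± 0.10 in Q111 with and without mGluR5. Scap, which escorts SREBP to the Golgi, differed by 0.06 ± 0.10 and 0.05 ± 0.10. Insig1, the sterol-sensing anchor, differed by 0.12 ± 0.11 and -0.15 ± 0.11. Its relative Insig2 measured 8.82, 8.81 and 8.90 in Q20 with mGluR5, 8.87, 9.01 and 9.07 in Q20 without it, 8.89, 8.85 and 8.96 in Q111 with it, and 8.83, 8.83 and 8.75 in Q111 without it. The Q111 arrays without mGluR5 lay below both the Q111 arrays with it and the Q20 arrays without it. The difference from the latter was -0.18 ± 0.09, which did not pass.

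The 7 genes of LXR signalling, efflux and transport also held no call. Apoe, the main apolipoprotein of astrocytes, measured 12.45, 12.28 and 12.38 in Q20 with mGluR5 and 12.32, 12.52 and 12.47 in Q20 without it. Its Q111 arrays measured 12.17, 12.20 and 12.23 with mGluR5 and 11.98, 12.37 and 12.11 without it. The Q111 arrays with mGluR5 lay below their Q20 counterparts, and 1 of the 3 without it lay among the Q20 values. The averaged difference was -0.23 ± 0.07 (adjusted p = 0.214). The 10 astrocyte markers were positive in Q111 in 4 of 10 with mGluR5 and in 3 of 10 without it, and their mean ranged from 9.53 to 9.73 over the arrays; their part in the Apoe values was not tested.

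Abca1, the pump that loads cholesterol onto apolipoproteins, measured 8.85, 8.87 and 8.65 in Q20 with mGluR5 and 9.19, 9.15 and 8.97 in Q20 without it. In Q111 it measured 8.78, 9.16 and 8.85 with mGluR5 and 8.97, 8.91 and 8.74 without it. It had the largest mGluR5 difference of any member in Q20, at 0.31 ± 0.12, and a difference of -0.06 ± 0.12 in Q111. The interaction was -0.37 ± 0.16 (adjusted p = 0.8815). None of these passed.

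Abcg1, a second cholesterol pump, measured 9.75, 9.97 and 9.91 in Q20 with mGluR5, 9.74, 9.95 and 9.88 in Q20 without it, 9.72, 9.78 and 9.57 in Q111 with it, and 9.76, 9.73 and 9.69 in Q111 without it. Its averaged Q111 difference was -0.16 ± 0.07 (adjusted p = 0.373), and the alleles overlapped. Stard4, a carrier of sterols between membranes, measured 6.99, 7.08 and 7.10 in Q20 with mGluR5, 7.04, 6.98 and 6.96 in Q20 without it, 6.82, 6.73 and 7.01 in Q111 with it, and 6.95, 6.92 and 6.82 in Q111 without it. Its averaged difference was -0.15 ± 0.06 (adjusted p = 0.384). Both genes thus had lower Q111 means that did not pass.

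Nr1h3, one of the LXR receptors, measured 6.63, 6.63 and 6.74 in Q20 with mGluR5, 6.66, 6.69 and 6.74 in Q20 without it, 6.92, 6.78 and 6.69 in Q111 with it, and 6.78, 6.64 and 6.41 in Q111 without it. Its difference for mGluR5 loss in Q111 was -0.18 ± 0.10, which did not pass, and its lowest array, at 6.41, lay below all the others. Npc1 and Npc2, which release cholesterol from lysosomes, differed in Q111 by 0.11 ± 0.10 and 0.05 ± 0.10 with mGluR5. Without it they differed by 0.08 ± 0.10 and 0.00 ± 0.10. Cyp46a1, the neuronal hydroxylase that turns cholesterol into an excretable oxysterol, differed by -0.10 ± 0.09 and -0.04 ± 0.09 in Q111, with a 95% interval of -0.29 to 0.09 with mGluR5.

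Across the 31 members the Q111 differences did not lean the same way in the 2 receptor genotypes. With mGluR5, 20 of 31 were positive with a median of 0.05, while 45.9% of all tested genes were positive with a median of -0.011. Without mGluR5, 6 of 31 were positive with a median of -0.08, where 43.3% of all tested genes were positive with a median of -0.022. The count of 6 depends on how the arrays are scaled: it became 11 after quantile normalization and 14 with the interquartile range of each array as a covariate. Members whose groups did not overlap numbered 3 with mGluR5, where 9.69% of all tested genes were separated, and 8 without it, where 19.1% were. All of these members were lower in Q111, as were 5.3% and 13% of all tested genes. With mGluR5 they were Hsd17b7, Apoe and Srebf1, and without it Hsd17b7, Srebf1, Insig2, Fdft1, Idi1, Dhcr7, Insig1 and Stard4. At an unadjusted p below 0.05 the comparison with mGluR5 held 2 members, against 6.84% of all tested genes, and that without it 3, against 9.44%. The averaged comparison held 5, against 11.4%, with 12 of 31 members positive (19 with the interquartile range as a covariate) against 43.4% of all tested genes.

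The receptor's loss was called for no member by limma. In Q20, 26 of 31 members were positive (22 with the interquartile range as a covariate) against 57% of all tested genes, and 0 of 31 were called against 0.299%. At an unadjusted p below 0.05 there were 2 members, Abca1 and Sqle, against 6.02% of all tested genes. The 7 members with no overlap in Q20 were all higher without mGluR5, namely Abca1, Sqle, Hmgcs1, Idi1, Insig1, Fdps and Srebf1, while 12.8% of all tested genes had no overlap and 7.89% were higher without overlap. Hmgcs1 differed by 0.23 ± 0.12, Idi1 by 0.25 ± 0.14 and Insig1 by 0.19 ± 0.11. The Q20 arrays without mGluR5 enter both this comparison and the Q111 comparison without mGluR5, so the positive values here and the negative values there share those arrays.

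In Q111, loss of the receptor gave 17 positive members of 31, against 52.6% of all tested genes. None was called, against 0.275%, and none reached an unadjusted p below 0.05, against 4.36%. Sc5d, Insig2 and Dhcr7 had no overlap and were lower, where 7.46% of all tested genes had no overlap and 3.69% were lower without overlap. Averaged over the Htt alleles, 25 of 31 were positive against 57% of all tested genes, with 0 called against 0.293% of all tested genes and 0 at an unadjusted p below 0.05 against 5.32%. No member's arrays separated by receptor genotype over both alleles, where 0.305% of all tested genes did.

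The interaction was positive in 8 of 31 members, against 46.4% of all tested genes, and called in 0 of 31, against 0.437%. At an unadjusted p below 0.05 it held 1 member, Abca1, against 5.37% of all tested genes. The 95% intervals of the uncalled members lay within 1.5-fold in either direction for 30 of 30 in the Q111 comparison with mGluR5 and for 30 of 30 in that without it. They did so for 31 of 31 in each comparison of mGluR5 loss and for 27 of 31 in the interaction. Smaller changes were not resolved.

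**Figure D3:**
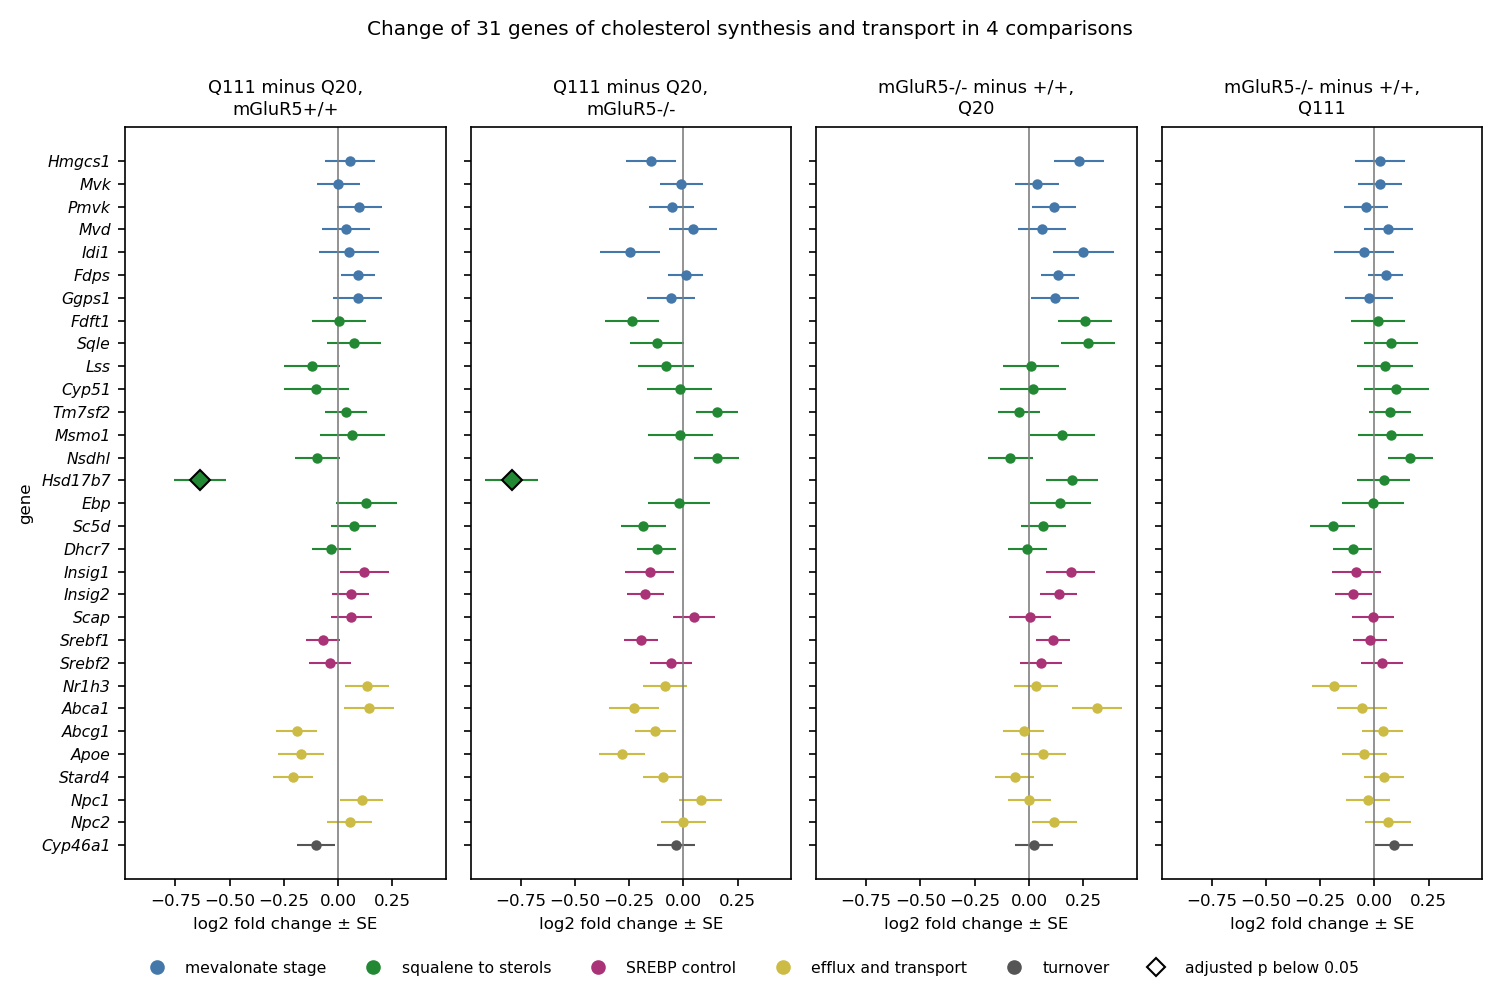
Log2 fold change with its standard error for all 31 members, ordered by role, for Q111 against Q20 with and without mGluR5 and for loss of mGluR5 in Q20 and in Q111. Diamonds mark an adjusted p below 0.05, which Hsd17b7 alone has, at -0.64 and -0.79, and the other members lie between -0.28 and 0.31.

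The enzymes tended to be high or low in the same arrays of a group, as did some other gene lists. The mean of the 18 measured enzymes was 8.41, 8.57 and 8.47 in Q20 with mGluR5, 8.54, 8.70 and 8.54 in Q20 without it, 8.43, 8.63 and 8.36 in Q111 with it, and 8.48, 8.55 and 8.45 in Q111 without it. Replicate 2 was the highest in each group and also had the widest interquartile range of all probe sets in its group, at 2.88, 2.95, 2.93 and 2.80. Replicate 2 was the highest of its group for 19 of 31 members in Q20 with mGluR5 and for 24 in Q20 without it. In Q111 it was the highest for 19 with mGluR5 and for 13 without it, where replicate 1 was the highest for 14. The shares of all probe sets highest in replicate 2 were 34.7%, 35.6%, 41.4% and 35.3%. The share for replicate 1 of Q111 without mGluR5 was 27.4%. These shares cover all 35556 probe sets, low signals included, whereas all 31 members lay above the 25th percentile of every array. The shares are therefore not a background of genes with like signal. For the 7 efflux and transport genes the mean was highest in replicate 2 in 3 of the 4 groups, and was 9.14, 9.13 and 9.03 in the fourth, Q111 without mGluR5. Replicate 2 also had the highest mean in every group for the astrocyte markers (9.61, 9.73, 9.69 and 9.62). The same held for the 63 further pathway genes described below (9.13, 9.21, 9.17 and 9.12). It did not hold in every group for any other cell marker list. The pattern was thus not particular to the sterol enzymes. In Q111 with mGluR5, replicate 3 was the lowest of all 12 arrays for 12 members and replicate 2 the highest for 7. With the interquartile range as a covariate, positive members numbered 22 of 31 for Q111 with mGluR5 and 14 without it. For mGluR5 loss they numbered 22 in Q20, 17 in Q111 and 24 averaged, and for the interaction 8.

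**Figure D4:**
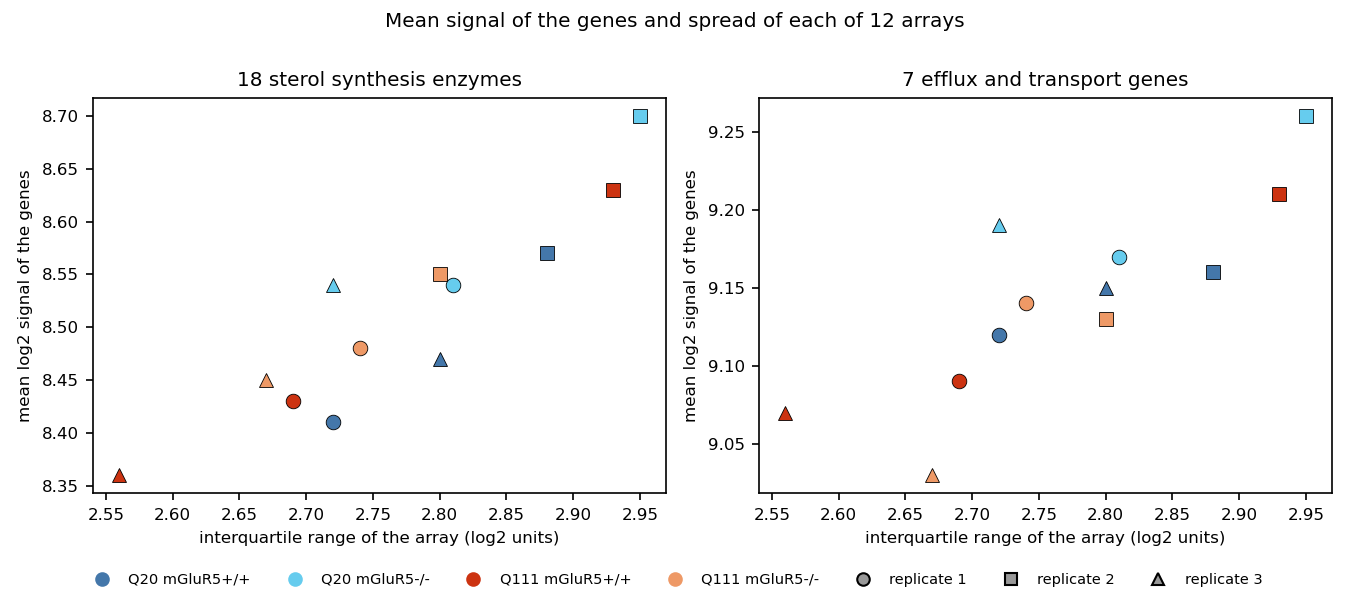
Mean log2 signal of the 18 measured sterol synthesis enzymes (one panel) and of the 7 efflux and transport genes (the other) against the interquartile range of all probe sets in log2 units, with 1 point for each of the 12 arrays. In each group replicate 2 is the widest array and the highest for the enzymes, up to 2.95 and 8.70.

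Label checks and the makeup of the tissue were as follows. Grm5 differed by -0.94 ± 0.09 in Q20 (adjusted p = 0.0001895) and -0.87 ± 0.09 in Q111 (adjusted p = 0.0001703), with all 6 arrays without mGluR5 below the others by at least 0.68. Its signal without mGluR5 was still 10.93 to 11.17, and the labels do not say where its probes lie relative to the deletion. Htt differed by -0.15 ± 0.06 in Q111 averaged over both receptor genotypes (adjusted p = 0.344), and an array signal does not show repeat length. Its highest Q111 array, at 9.84, lay below its lowest Q20 array, at 9.86. The 8 measured markers of striatal projection neurons were detected in all 12 arrays with a mean between 11.70 and 11.84, and no marker of any cell type on the lists was called. Endothelial and mural markers were negative in Q111 for 9 of 10 in both receptor genotypes, with medians of -0.21 and -0.27; their mean was 7.77 to 7.96 in Q20 with mGluR5, 7.93 to 7.95 in Q20 without it, and 7.59 to 7.87 and 7.70 to 7.89 in Q111. Microglia markers were positive in 7 of 8 for mGluR5 loss in Q20 (median 0.18) and in 2 of 8 for Q111 without mGluR5 (median -0.19). Of all tested genes, 57% and 43.3% were positive there. The 6 choroid plexus and ependyma markers had means of 6.54 to 7.10 over the arrays. Among them, Ttr ranged from 6.30 to 9.28, the highest in replicate 2 of Q20 without mGluR5. The part of any of these markers in the member values was not tested.

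A further 74 genes of related pathways were listed. They cover sterol and isoprenoid synthesis, SREBP regulation, fatty acid synthesis, lipoprotein handling, oxysterol enzymes, and the endolysosomal handling of sterols and their esters. Of these, 63 were tested, and Pltp was the only one called, in the averaged Q111 comparison alone. That is 1 of 63, where 1.32% of all tested genes were called. Pltp, which transfers phospholipids between lipoproteins, measured 9.64, 9.69 and 9.37 in Q20 with mGluR5 and 9.57, 9.82 and 9.55 in Q20 without it. The Q111 arrays measured 9.13, 9.25 and 9.39 with mGluR5 and 9.09, 9.22 and 9.23 without it. Averaged over the receptor genotypes it fell by 0.39 ± 0.08 (1.31-fold lower, adjusted p = 0.0233), and the alleles overlapped by 0.02 in 1 pair of arrays. Positive Q111 differences numbered 31 of the 63 with mGluR5 and 18 of 63 without it, against 45.9% and 43.3% of all tested genes. Positive differences for mGluR5 loss numbered 47 of 63 in Q20 and 31 of 63 in Q111, against 57% and 52.6% of all tested genes.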

How the data were processed

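Biotin-labelled cDNA from total RNA was hybridised to Affymetrix whole-transcript arrays. Values were deposited on the log2 scale, made by RMA and Partek per the submitters' processing notes. Partek Genomics Suite 6.5 is named in the design text. Platform annotation named 1 gene for 21789 of 35556 probe sets, several for 1621 and none for 12146, and RefSeq on GRCm38.p6 gave positions for 19856 genes.

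limma 3.58.1 (R 4.3.3) estimated a mean for each of the 4 groups from all 12 arrays, with 8 residual and 6.88 prior degrees of freedom. A gene was tested if it exceeded the 25th percentile of its array in 3 or more arrays. P-values were two-sided and adjusted by the Benjamini-Hochberg method over 16721 genes, and calls required an adjusted p below 0.05. Intervals are at 95%. Precision is limited by having 3 arrays in a group. On simulated data with 200 of 16721 genes altered, 69% were recovered at 1.5-fold and 97.5% at 2-fold in the Q111 comparison with mGluR5, with 7 and 6 false calls. The simulated noise was independent between genes and held no deviation shared within an array, so these rates may not hold for the real arrays.

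The members, lists and naming rule were chosen with earlier results of these data known. The rule gives every member at least once, and array values for members called and for the 3 with the smallest unadjusted p in each comparison. It also takes called genes of the other pathway lists, the 5 tested genes on either side of a called member, and Grm5 and Htt. Plots used matplotlib 3.10.9 (Python 3.11.15). Alternatives covered the authors' criteria, the model, scaling, filter, probe set, array weights, a replicate block and leaving out each array. Weights estimated gene by gene, and sign counts under other scalings, were added after the data were seen.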

Additional observations from a re-analysis of the deposited data

How the results depend on the processing

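For 25 differences of named members under 24 or 25 alternatives each, 592 of 612 values kept their direction and their side of the threshold, 8 lost the call, 11 gained one, and 1 reversed. The fall of Hsd17b7 averaged over mGluR5 genotypes ranged from -0.77 to -0.65. With mGluR5 it ranged from -0.74 to -0.50 and missed the threshold in the unmoderated model (adjusted p = 0.161), on the compared groups alone (0.0916) and with array weights (0.154), where 0 members were called; leaving out 1 array gave 0 to 1 called. Without mGluR5 it ranged from -0.85 to -0.66 and missed the threshold in the unmoderated model (0.0503). There Srebf1 was the 1 member called (adjusted p = 0.0443), 3.23% of members against 0.544% of all tested genes. Srebf1 had the lowest within-group SD of the members, at 0.0369. Array weights gave 5 members without mGluR5 (Hsd17b7, Srebf1, Abca1, Apoe and Npc1), 16.1% against 19.6% of all tested genes, and 3 for mGluR5 loss in Q20 (Hmgcs1, Sqle and Abca1), 9.68% against 12.7%; their estimate stopped before converging. Weights estimated gene by gene gave 2 without mGluR5 (Hsd17b7 and Srebf1), 6.45% against 5.57% of all tested genes, and 4 averaged (Hsd17b7, Srebf1, Stard4 and Apoe), 12.9% against 11.3%. They gave 1 each, Abca1, for mGluR5 loss in Q20 and averaged, 3.23% against 2.27% and 2.24%, so these member shares lie near the background. The unmoderated model gave 2 averaged (Hsd17b7 and Srebf1), against 0.736% of all tested genes. For Hsd17b7, mGluR5 loss in Q111 was -0.002782 without replicate 1 of Q111 without mGluR5, a reversal of a value that was not called, and leaving out 1 array gave a range up to 0.07405. The causes were not tested. The averaged median of the 31 members was -0.04 as deposited, -0.06 after median centring, -0.01 after quantile normalization and 0.02 with the interquartile covariate, with 12, 12, 14 and 19 members positive.

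The labels do not say what a replicate number marks, and not every same-numbered pair of arrays deviated together: 11 of 18 correlated above 0.1 (range -0.144 to 0.567), so the numbers were not taken to pair the samples. All 6 pairs of replicate 2 did (0.339 to 0.567), against 2 of 6 for replicate 1 and 3 of 6 for replicate 3, and 8 of 12 arrays correlated best with their own number, a hint from the data of structure shared by number. With the replicate block, 1 member was called with mGluR5, without it and averaged, and 0 in the other comparisons, as in the fit without it. The adjusted p of Hsd17b7 was 0.0062 with mGluR5, 0.000901 without it and 7.29e-05 averaged. Calls over all genes rose from 96 to 204, 148 to 343 and 221 to 487 in these comparisons, and from 50 to 129, 46 to 103, 73 to 107 and 49 to 79 for mGluR5 loss in Q20, in Q111, the interaction and the averaged loss.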
